A study of Mus musculus with 6 samples.

Results

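The TNF and TNF receptor superfamilies were followed as 42 genes of the 24421 in the deposited expression table, 17 ligands and 25 receptors. They were taken by symbol: every gene named Tnfsf or Tnfrsf with a number, together with Tnf, Lta, Ltb, Ltbr, Cd27, Cd70, Cd40, Cd40lg, Fas, Fasl and Relt. The cells were wild-type primary mouse CD4 T cells, taken from splenocytes as naive cells and driven to the Th17 state, in which helper T cells make the cytokine IL-17. The 3 pemafibrate samples (numbered 3, 7 and 8) received 10 nM pemafibrate, a drug that activates the lipid-sensing nuclear receptor PPARalpha, until day 2, and the 3 vehicle samples (numbered 3, 4 and 7) received vehicle. After that, culture went on for 2 days in IMDM with 10% serum. The labels give no strain, age or sex and leave it unsaid if each sample had an animal or culture of its own. The p-values therefore reflect the scatter of these 6 samples alone, and that scatter may be technical.

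The ligands of these families are mostly membrane-anchored proteins that work as trimers, and their receptors carry cysteine-rich domains outside the cell. Most of the receptors recruit TRAF adaptors and activate NF-kappaB and MAP kinases, while receptors with a death domain can also activate caspase-8. On CD4 T cells the receptors OX40 (Tnfrsf4), CD137 (Tnfrsf9), GITR (Tnfrsf18) and CD30 (Tnfrsf8) appear after activation and act as costimulators. Activated T cells in turn offer CD40 ligand (Cd40lg), RANK ligand (Tnfsf11), Fas ligand (Fasl) and lymphotoxin (Lta and Ltb) to neighbouring cells.

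No member passed the main test. The genes nearest to passing were those of RANK ligand and CD137, higher in every pemafibrate sample than in every vehicle sample, and Tnfrsf23 and Tnfrsf26, neighbouring receptor genes on chromosome 7, lower in every one. The fitted fold was 1.56 for Tnfsf11, 1.15 for Tnfrsf9, 0.77 for Tnfrsf23 and 0.81 for Tnfrsf26. The 6 libraries held 14935351 to 18322467 reads. The main test was limma on log2(RPKM + 0.5), where RPKM corrects reads for the length of the gene and the size of the library, and it kept genes averaging 0.5 RPKM or more. It tested 31 of the 42 members and called 0 of them at a Benjamini-Hochberg adjusted p of 0.05, against 0.352% of all 11360 genes tested. Without adjustment 12 members had a limma p under 0.05, of which 8 were higher and 4 lower, beside 9.67% of all genes. Voom, limma's count model, run on the whole reads that the RPKM values imply, called exactly the 4 genes above among the members at an adjusted p under 0.05, beside 1.25% of genes. Among the members, 7 in the authors' deposited table had an adjusted p under 0.05, beside 1.73% of genes with any read. These were the same 4 with Tnfrsf18, Lta and Fasl. All of these counts come from the same 6 libraries.

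Windows around the annotated starts of Tnfsf11, Tnfrsf9 and Tnfrsf23 are printed because these genes had the smallest p among the members. Each window runs from 250 bases before the start to 50 after it (RefSeq, GRCm38.p6), 5′ to 3′ on the gene's strand. Capitals mark matches on either strand to TATAAA, to the AP-1 motif TGANTCA, to AGGTCA, a nuclear receptor motif that PPAR proteins also bind as part of their element, or to the kappaB motif. Tnfrsf9 has 2 annotated starts, and the window of the inner one is shown, since the outer one (chr4:150919905-150920204) held 0 matches. Tnfrsf23 had 1 window, which lies inside the gene's span. That span reaches 143686436 and the window 143686125, so its start is not the outermost end of the gene. Tnfrsf26 had no window in the promoter table.
Tnfsf11, chr14:78307994-78308293, minus strand: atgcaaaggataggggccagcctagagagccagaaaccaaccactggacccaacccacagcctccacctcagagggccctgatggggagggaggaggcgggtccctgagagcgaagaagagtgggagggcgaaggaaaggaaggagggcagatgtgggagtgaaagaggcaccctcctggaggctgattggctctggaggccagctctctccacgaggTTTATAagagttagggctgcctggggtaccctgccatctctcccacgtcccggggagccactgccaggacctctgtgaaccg
Tnfrsf9, chr4:150927749-150928048, plus strand: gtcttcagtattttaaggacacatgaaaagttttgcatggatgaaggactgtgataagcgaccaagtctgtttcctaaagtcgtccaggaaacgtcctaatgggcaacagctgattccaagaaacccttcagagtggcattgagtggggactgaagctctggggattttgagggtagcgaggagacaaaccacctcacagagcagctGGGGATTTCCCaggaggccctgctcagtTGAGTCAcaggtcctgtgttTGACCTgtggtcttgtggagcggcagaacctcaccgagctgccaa
Tnfrsf23, chr7:143685826-143686125, minus strand: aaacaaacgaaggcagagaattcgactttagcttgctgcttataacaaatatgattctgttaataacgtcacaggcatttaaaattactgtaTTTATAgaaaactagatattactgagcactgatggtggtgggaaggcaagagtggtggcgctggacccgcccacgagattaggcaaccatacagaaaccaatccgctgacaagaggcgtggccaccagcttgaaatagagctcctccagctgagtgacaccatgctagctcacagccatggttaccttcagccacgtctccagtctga

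The Tnfrsf9 window held kappaB matches starting 43 and 42 bases before the start site, which overlap each other in all but the end bases, an AP-1 match starting 15 bases before it and an AGGTCA match on the opposite strand from base 6 of the transcript. The Tnfsf11 window held a TATAAA match on the opposite strand starting 32 bases before the start, and the Tnfrsf23 window held 1 on the opposite strand starting 158 bases before it. Over all 32841 windows of this length, 8.46% held a kappaB match, 7.81% an AP-1 match, 16.3% an AGGTCA match and 13.6% a TATAAA match. Of 32 member genes with a window, 4 held a kappaB match, 6 an AP-1 match, 4 an AGGTCA match and 6 a TATAAA match. These counts are per gene over all its windows, unlike the percentages, which are per window. A match describes letters in this window only.

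Levels per unit of gene length differed widely between members. The most abundant ligand was Lta, with a mean of 288 RPKM over the 6 samples, followed by Ltb (165), Tnf (37.4) and Cd40lg (34.1). The most abundant receptors were Tnfrsf4 (277), Tnfrsf18 (180.2), Tnfrsf13b (108), Tnfrsf9 (101), Tnfrsf25 (49.99) and Tnfrsf14 (32.8). Tnfrsf13b encodes TACI, a receptor for BAFF and APRIL. The sample ranges of Tnf and Cd40lg overlapped, as did those of Tnfrsf13b and Tnfrsf9 and those of Tnfrsf14 and Tnfrsf1b (31.6). The level of Tnfrsf13b rests on a gene length of 750 bases, the shortest among the members, that the RPKM values imply.

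**Figure D1:**
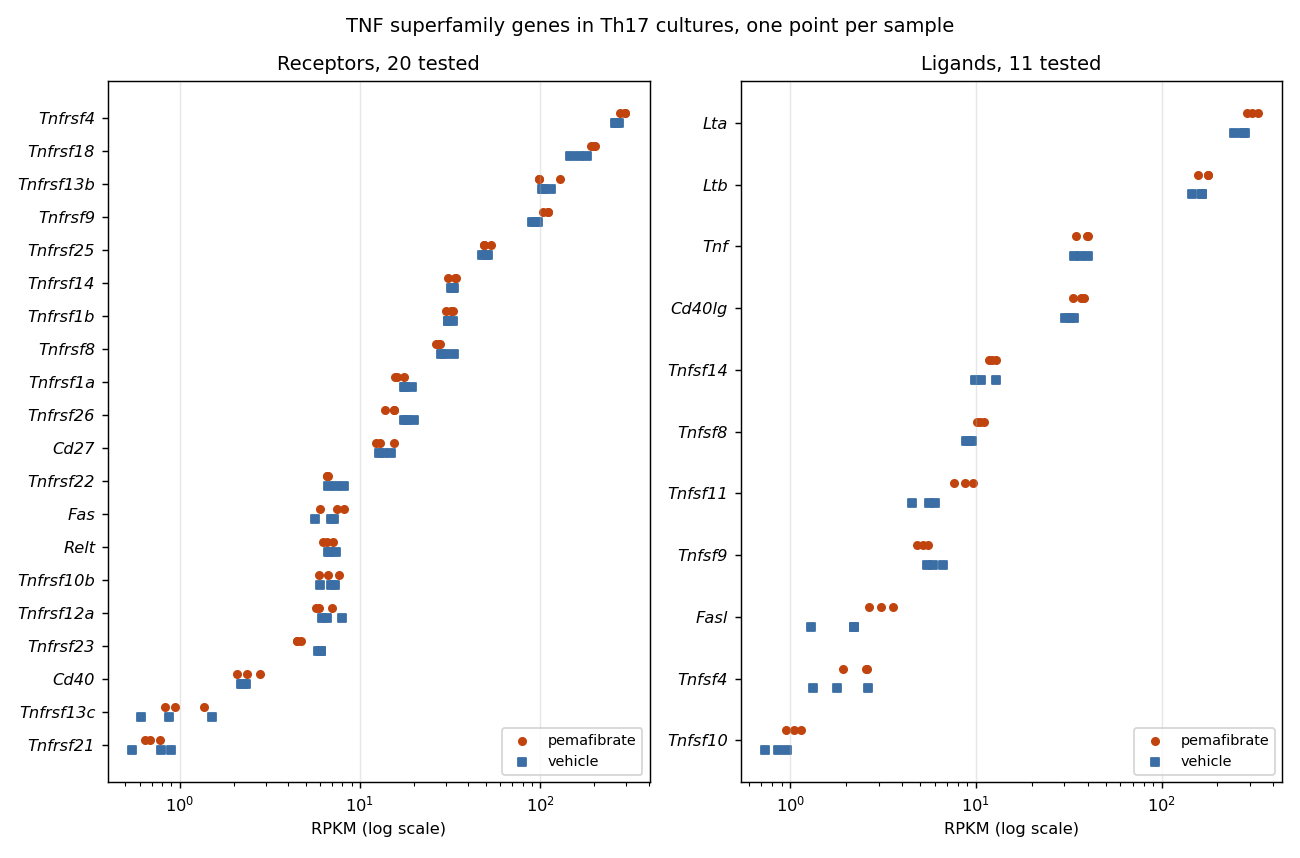
RPKM (log scale) of the 20 tested receptors and the 11 tested ligands, with 1 point per sample, pemafibrate samples as circles above vehicle samples as squares. Lta and Tnfrsf4 stand at the top of their panels, and the groups lie apart in Tnfsf11, Fasl and Tnfrsf23.

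Log2 differences, pemafibrate minus vehicle, were positive for 10 of the 11 tested ligands, beside 52.6% of all genes. Their median was 0.20, and that of all genes 0.0052. Of the 20 tested receptors 10 were positive and 10 negative, beside 47.4% of all genes negative, and the receptor median was 0.00081. The groups did not overlap in 4 ligands, all higher, and in 6 receptors, 3 higher and 3 lower. Among all tested genes 7.67% lay wholly higher and 7.31% wholly lower in pemafibrate. No test of ligands against receptors was made.

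**Figure D2:**
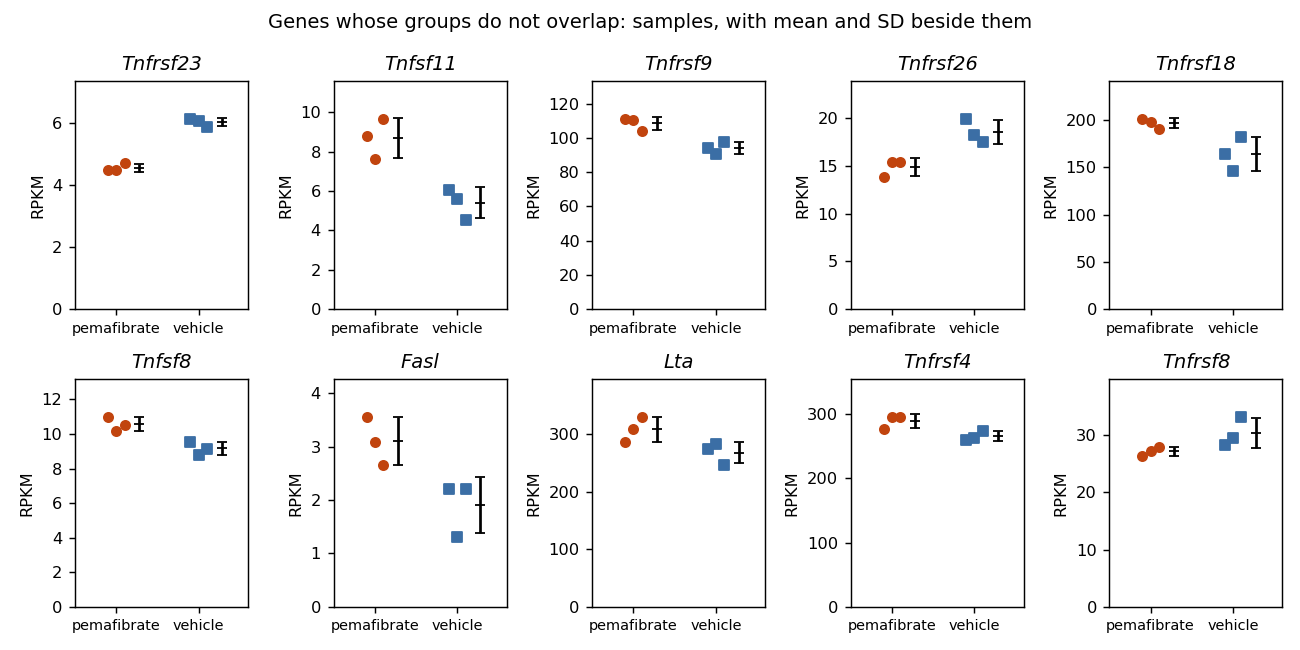
RPKM in each sample (circles, pemafibrate; squares, vehicle) for the 10 members whose groups do not overlap, with the mean and SD of each group beside the points (n = 3 per group). In Tnfrsf23 the pemafibrate samples lie between 4.47 and 4.704 RPKM and the vehicle samples between 5.87 and 6.12 RPKM.

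RANK ligand and Fas ligand had the largest log2 differences among the tested members. Tnfsf11 (chromosome 14, 78277446 to 78308043) encodes the ligand through which T cells drive osteoclast formation and dendritic cell survival. It measured 8.77, 7.61 and 9.65 RPKM in pemafibrate 3, 7 and 8, against 6.06, 5.602 and 4.53 RPKM in vehicle 3, 4 and 7. Every pemafibrate sample lay above every vehicle sample, and the spread within each group was smaller than the gap between the means, 8.68 ± 1.02 and 5.39 ± 0.785 RPKM (SD, n = 3 each). The log2 difference was 0.64 ± 0.12 (SE, limma adjusted p = 0.0879), and voom gave an adjusted p of 0.00899. Over the 14 alternatives the adjusted p ran from 0.00899 to 0.2198. In the authors' deposited table its log2 fold change was 0.69 and its adjusted p 4.21e-06.

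The receptors of RANK ligand were hardly detected. Tnfrsf11a, which encodes RANK, had 2, 3 and 2 reads in pemafibrate 3, 7 and 8, against 0, 2 and 2 reads in vehicle 3, 4 and 7. Tnfrsf11b, the secreted decoy osteoprotegerin, had 6, 17 and 5 reads in pemafibrate 3, 7 and 8, against 4, 9 and 5 reads in vehicle 3, 4 and 7. Both genes were below the filter, and so few reads cannot show whether they differed.

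Fas ligand triggers apoptosis through Fas. Fasl (chromosome 1, 161780691 to 161788495) measured 3.56, 3.08 and 2.66 RPKM in pemafibrate 3, 7 and 8, against 2.199, 1.301 and 2.21 RPKM in vehicle 3, 4 and 7. The groups did not overlap, and vehicle 4 stood below the other vehicle samples. The log2 difference was 0.60 ± 0.18 (SE, limma adjusted p = 0.288) and 0.40 without vehicle 4, and voom gave an adjusted p of 0.128. Its order with Tnfsf11 turned with the scale: Fasl had 0.70 and Tnfsf11 0.68 with a pseudocount of 0.1, and Fasl 0.73 and Tnfsf11 0.69 by voom. Its receptor gene Fas measured 7.23 ± 1.12 RPKM in pemafibrate and 6.59 ± 0.846 RPKM in vehicle (SD, n = 3 each), with overlapping groups and a 95% interval of the log2 difference from -0.17 to 0.42. Tnfsf10, the gene of the death ligand TRAIL, was low, with 1.05 ± 0.0943 RPKM in pemafibrate and 0.851 ± 0.113 RPKM in vehicle (limma adjusted p = 0.719). Tnfrsf10b, the TRAIL receptor with a death domain, averaged 6.76 RPKM in both groups (interval of the log2 difference from -0.24 to 0.24).

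The TNF and lymphotoxin genes, neighbours on chromosome 17 (35194507 to 35205578 in the order Ltb, Tnf and Lta), were among the most abundant members. Lta encodes lymphotoxin alpha, which binds the TNF receptors as a homotrimer and joins lymphotoxin beta on the cell surface. It measured 287, 308 and 330.0 RPKM in pemafibrate 3, 7 and 8, against 274, 282 and 247 RPKM in vehicle 3, 4 and 7. The groups lay close together without overlap, with a log2 difference of 0.20 ± 0.067 (SE, limma adjusted p = 0.374). Ltb measured 157, 178 and 179 RPKM in pemafibrate 3, 7 and 8, against 165, 166 and 146 RPKM in vehicle 3, 4 and 7 (limma adjusted p = 0.726). Tnf measured 34.5, 40.4 and 39.5 RPKM in pemafibrate 3, 7 and 8, against 36.4, 40.03 and 33.8 RPKM in vehicle 3, 4 and 7 (limma adjusted p = 0.901). Both of these overlapped between the groups.

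In Lta, Ltb and Tnf pemafibrate 3 and vehicle 7 were each the lowest of their group. The same held for 8 of 31 tested members, among them Fas, Tnfrsf10b and Tnfsf4, and for 20.8% of all tested genes. In 5 members, Fasl, Tnfrsf9, Tnfrsf12a, Tnfrsf13b and Tnfrsf18, these samples were each the highest of their group, as in 16.2% of all tested genes. The same samples stood at 1 end of the second principal component, which held 24.9% of the variance (10.6 for pemafibrate 3 and 12.1 for vehicle 7, with the other scores between -10.4 and 0.277).

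The receptors for TNF differed little. Tnfrsf1a, the death domain receptor for TNF and lymphotoxin alpha, measured 16.1, 15.6 and 17.5 RPKM in pemafibrate 3, 7 and 8, against 17.9, 17.5 and 19.4 RPKM in vehicle 3, 4 and 7. Pemafibrate 8 reached the level of vehicle 4, and the log2 difference of -0.15 ± 0.061 (SE) did not pass (limma adjusted p = 0.479). Tnfrsf1b, the TNF receptor without a death domain, averaged 31.7 ± 1.37 RPKM in pemafibrate and 31.6 ± 1.18 RPKM in vehicle (SD, n = 3 each). Its 95% interval of the log2 difference ran from -0.11 to 0.11. Ltbr, the receptor for surface lymphotoxin, was below the filter, with 6, 4 and 11 reads in pemafibrate 3, 7 and 8, against 10, 8 and 3 reads in vehicle 3, 4 and 7.

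Among the costimulatory receptors GITR, CD137 and OX40 were higher and CD30 lower in every pemafibrate sample than in every vehicle sample. Tnfrsf9, the gene of CD137 (chromosome 4, 150920155 to 150946104), measured 111, 110.2 and 104 RPKM in pemafibrate 3, 7 and 8, against 93.8, 90.7 and 97.6 RPKM in vehicle 3, 4 and 7. The log2 difference was 0.21 ± 0.042 (SE, limma adjusted p = 0.118). It passed in 2 of 14 alternatives, voom (adjusted p = 0.0312) and array weights (0.0396), and over all of them the adjusted p ran from 0.0312 to 0.577. Its ligand gene Tnfsf9 was the 1 tested ligand below 0, with 4.79, 5.498 and 5.202 RPKM in pemafibrate 3, 7 and 8, against 5.88, 5.47 and 6.67 RPKM in vehicle 3, 4 and 7 (limma adjusted p = 0.521). Its groups overlapped. Annotated exons of Tnfsf9 share 14.9% of their bases with Gm11110 on the opposite strand, which reached 5.3 RPKM.

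Tnfrsf18, the gene of GITR (chromosome 4, 156026322 to 156028894), measured 201, 198 and 191 RPKM in pemafibrate 3, 7 and 8, against 164, 146 and 182 RPKM in vehicle 3, 4 and 7. The pemafibrate samples lay close together and the vehicle samples were spread, with means of 196 ± 5.21 and 164 ± 17.9 RPKM (SD, n = 3 each). The log2 difference was 0.27 ± 0.074 (SE, limma adjusted p = 0.258), voom gave an adjusted p of 0.0626, and the authors' deposited table gave an adjusted p of 0.00203. Annotated exons of Tnfrsf18 share 27.2% of their bases with Gm16008 on the opposite strand. Its ligand gene Tnfsf18 had 1 read in vehicle 7 and 0 in the other libraries.

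Tnfrsf4, the gene of OX40, lies 9708 bases from Tnfrsf18. It measured 277, 295 and 296 RPKM in pemafibrate 3, 7 and 8, against 259.9, 263 and 274 RPKM in vehicle 3, 4 and 7. Pemafibrate 3 was nearly level with vehicle 7, and the log2 difference was 0.12 ± 0.043 (SE, limma adjusted p = 0.399). Its ligand gene Tnfsf4 measured 1.93, 2.58 and 2.57 RPKM in pemafibrate 3, 7 and 8, against 1.79, 2.62 and 1.33 RPKM in vehicle 3, 4 and 7 (limma adjusted p = 0.755). The groups overlapped, with vehicle 4 the highest sample.

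Tnfrsf8, the gene of CD30, measured 26.4, 27.2 and 27.97 RPKM in pemafibrate 3, 7 and 8, against 28.2, 29.5 and 33.2 RPKM in vehicle 3, 4 and 7. The nearest samples, pemafibrate 8 and vehicle 3, were almost equal, and the log2 difference was -0.15 ± 0.063 (SE, limma adjusted p = 0.512) and -0.081 without vehicle 7. Its ligand gene Tnfsf8 stood the other way, at 11.00, 10.2 and 10.5 RPKM in pemafibrate 3, 7 and 8, against 9.55, 8.796 and 9.16 RPKM in vehicle 3, 4 and 7. The log2 difference of Tnfsf8 was 0.20 ± 0.055 (SE, limma adjusted p = 0.264). Cd27, which sustains T cell survival, averaged 13.5 ± 1.65 RPKM in pemafibrate and 13.7 ± 1.13 RPKM in vehicle (SD, n = 3 each). Tnfrsf14, the LIGHT receptor HVEM, averaged 32.9 ± 1.701 RPKM in pemafibrate and 32.8 ± 0.6400 RPKM in vehicle (SD, n = 3 each), with a 95% interval of the log2 difference from -0.10 to 0.11.

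GITR, CD137 and OX40 are also carried by regulatory T cells, and several markers of that cell type lay apart between the groups. Of 7 such markers, 6 were tested by limma and 7 by voom. They were picked with their values in view, so the shares of all genes set beside them are no test of the list. Limma called 1 of these (Izumo1r, adjusted p = 0.0362), beside 0.352% of all genes. Voom called 4, all higher (Foxp3, Izumo1r, Nrp1 and Lrrc32), beside 1.25% of all genes, and the authors' deposited table had 4, all higher, beside 1.73%. Foxp3, Izumo1r, Nrp1 and Lrrc32 lay wholly higher and Ctla4 wholly lower in pemafibrate, beside 7.67% and 7.31% of all tested genes. Il2ra overlapped, and Ikzf2 was below the limma filter. Foxp3, the lineage-defining factor, measured 6.02, 7.47 and 8.69 RPKM in pemafibrate 3, 7 and 8, against 3.99, 4.200 and 3.39 RPKM in vehicle 3, 4 and 7. The summed level of the 7 markers, most of it Il2ra and Ctla4, ran from 1044 to 1089 RPKM in pemafibrate and from 1116 to 1157 RPKM in vehicle. None of the 7 was at 0 in any sample. Their part in the receptor differences was not tested, and in bulk RNA a difference in the number of cells of a type and a difference in RNA per cell cannot be told apart.

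CD40 ligand, by which helper T cells activate B cells and dendritic cells, overlapped between the groups in 1 sample. Cd40lg measured 38.2, 36.9 and 33.5 RPKM in pemafibrate 3, 7 and 8, against 32.00, 33.8 and 30.2 RPKM in vehicle 3, 4 and 7. Pemafibrate 8 lay just under vehicle 4, and the log2 difference was 0.17 ± 0.061 (SE, limma adjusted p = 0.404). Its receptor gene Cd40, found mainly on antigen-presenting cells, was low, with 2.42 ± 0.364 RPKM in pemafibrate and 2.27 ± 0.0754 RPKM in vehicle. Tnfsf14, the gene of LIGHT, averaged 12.3 ± 0.526 RPKM in pemafibrate and 11.2 ± 1.57 RPKM in vehicle (limma adjusted p = 0.742).

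Tnfrsf26, Tnfrsf22 and Tnfrsf23 are adjacent on chromosome 7, and all 3 had log2 differences below 0. Mouse Tnfrsf22 and Tnfrsf23 encode decoy receptors for TRAIL that lack a death domain. Tnfrsf23 (143665807 to 143686436) measured 4.47, 4.47 and 4.704 RPKM in pemafibrate 3, 7 and 8, against 6.12, 6.06 and 5.87 RPKM in vehicle 3, 4 and 7. The gap between the groups was much wider than the spread within either, and the log2 difference was -0.37 ± 0.059 (SE, limma adjusted p = 0.06000). It passed in 2 of 14 alternatives, voom (adjusted p = 0.0193) and array weights (0.02305), and over all of them the adjusted p ran from 0.0193 to 0.525. In the authors' deposited table its adjusted p was 0.00446.

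Tnfrsf26 (143607685 to 143627845) measured 13.8, 15.4 and 15.4 RPKM in pemafibrate 3, 7 and 8, against 19.9, 18.2 and 17.5 RPKM in vehicle 3, 4 and 7. The groups did not overlap, and the log2 difference was -0.31 ± 0.065 (SE, limma adjusted p = 0.132; voom adjusted p = 0.0289). Tnfrsf22 (143634808 to 143649675), between the other 2, measured 6.69, 6.56 and 6.55 RPKM in pemafibrate 3, 7 and 8, against 6.63, 8.203 and 7.39 RPKM in vehicle 3, 4 and 7. Its groups overlapped only through vehicle 3, with a log2 difference of -0.15 ± 0.078 (SE, limma adjusted p = 0.6304). Annotated transcripts of Tnfrsf23 share 18% of their 50-base words with those of Tnfrsf22, so reads of these genes can be uncertain, while those of Tnfrsf26 share 0 with either. Tnfrsf23 and Tnfrsf26 also share 4.14% and 3.33% of their exon bases with the opposite-strand gene E230032D23Rik.

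**Figure D3:**
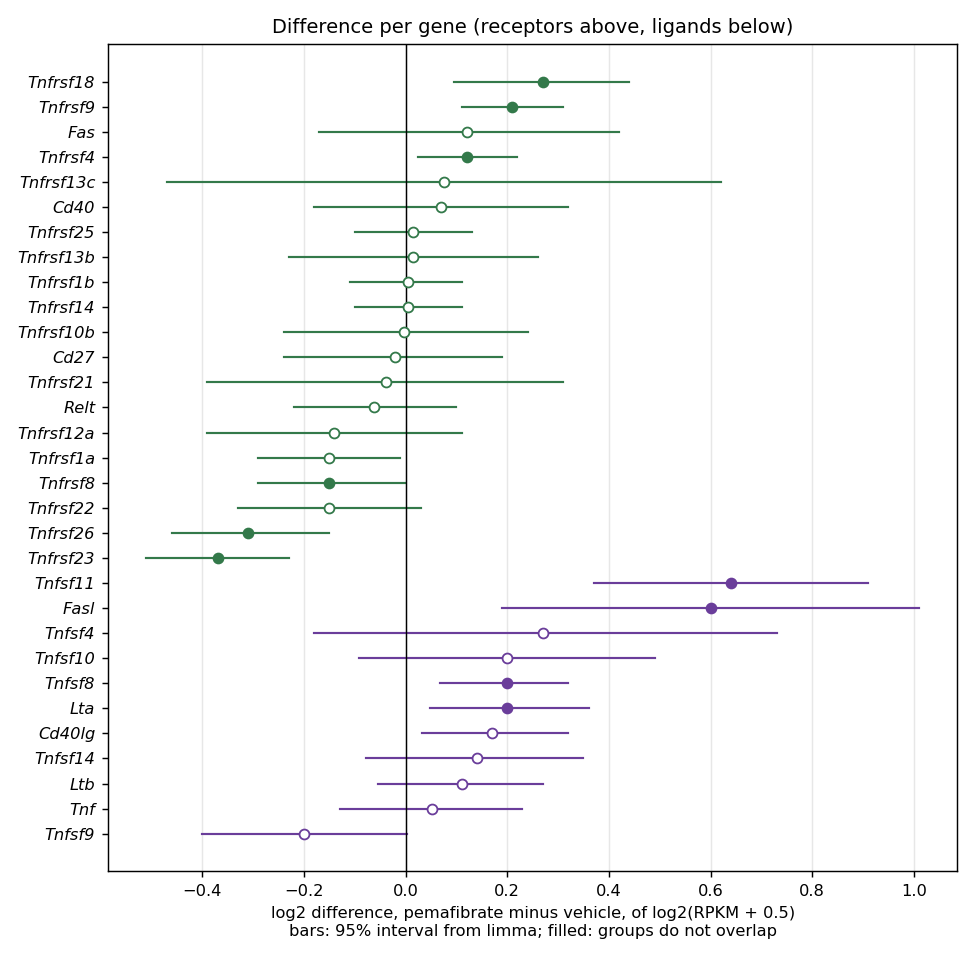
Log2 difference, pemafibrate minus vehicle, on the log2(RPKM + 0.5) scale for the 31 tested members, with 95% intervals from limma; filled points mark members whose groups do not overlap. Tnfsf11 (0.64) and Fasl (0.60) stand farthest right, and Tnfrsf23 (-0.37) and Tnfrsf26 (-0.31) farthest left.

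Receptors best known from B cells were present unevenly. Tnfrsf13b measured 129, 98.4 and 98.1 RPKM in pemafibrate 3, 7 and 8, against 104, 102 and 115 RPKM in vehicle 3, 4 and 7. Pemafibrate 3 was the highest sample, and without it the log2 difference was -0.12, against 0.014 ± 0.11 (SE) with it. Tnfrsf13c, the BAFF receptor, averaged 1.05 ± 0.284 RPKM in pemafibrate and 1.0000 ± 0.465 RPKM in vehicle, and Tnfrsf17, the receptor BCMA, had 1 read, in vehicle 4. The 6 B cell markers summed to between 5.99 and 6.99 RPKM in pemafibrate and between 5.92 and 6.55 RPKM in vehicle. Cd79a stood at 1.82 to 2.22 RPKM in pemafibrate and 1.81 to 2.12 RPKM in vehicle, and none of the markers was at 0. Of 5 tested, 1 (Blnk) lay wholly higher in pemafibrate, beside 7.67% of all tested genes. Blnk had 24 to 31 reads per library and an unadjusted limma p of 0.338. The part of these markers in the receptor levels was not tested.

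The remaining tested receptors showed no separation. Tnfrsf25, the death domain receptor DR3 for TL1A, averaged 50.3 ± 2.62 RPKM in pemafibrate and 49.7 ± 1.72 RPKM in vehicle (SD, n = 3 each), with a 95% interval of the log2 difference from -0.10 to 0.13. Tnfrsf12a, the TWEAK receptor, averaged 6.21 ± 0.706 RPKM in pemafibrate and 6.92 ± 0.932 RPKM in vehicle. Relt and Tnfrsf21, the death receptor DR6, averaged 6.65 and 0.703 RPKM in pemafibrate, against 6.96 and 0.744 RPKM in vehicle, with limma adjusted p of 0.848 and 0.969.

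The 11 members below the filter were 6 ligands, namely Cd70, Tnfsf12, Tnfsf13, Tnfsf13b, Tnfsf15 and Tnfsf18, and 5 receptors, namely Ltbr, Tnfrsf11a, Tnfrsf11b, Tnfrsf17 and Tnfrsf19. The highest read number in any library was 17, for Tnfrsf11b in pemafibrate 7. Cd70, Tnfsf18 and Tnfrsf17 had 1 read over the 6 libraries. Tnfsf13, the gene of APRIL, had 3, 0 and 1 reads in pemafibrate 3, 7 and 8, against 0 in each vehicle library, where a count of 0 allows up to 3 reads or at most 0.1196 RPKM at the depth of the smallest of the 6 libraries. No fold is given for these genes. Exons of Tnfsf13 and Tnfsf12 share 60% and 48.3% of their bases with the read-through gene Tnfsfm13, which is listed at 0, so that the values of both are uncertain.

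Set pair by pair, ligands and their known receptors were often far apart in level. Of 27 ligand and receptor pairs 13 had both partners at or above 0.5 RPKM, 5 had the ligand alone, 7 the receptor alone and 2 neither. OX40 ligand stood at 2.14 RPKM beside 277 RPKM for OX40. TL1A (Tnfsf15) stood at 0.0131 RPKM beside 49.99 RPKM for its receptor gene Tnfrsf25. The opposite held for Ltb and Ltbr, at 165 and 0.192 RPKM. These are means over the 6 samples of RNA levels within the culture.

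**Figure D4:**
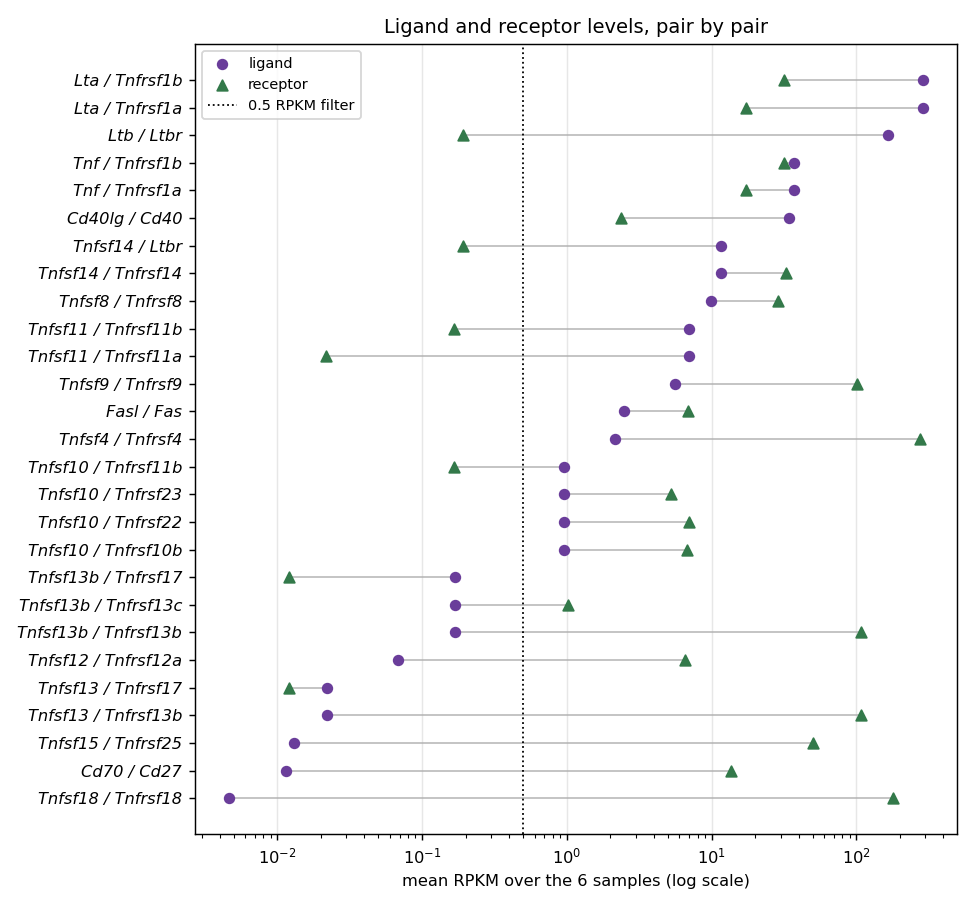
Mean RPKM over the 6 samples (log scale) of each ligand (circle) and of a known receptor (triangle), joined by a line for each of 27 pairs; the dotted line marks the filter of 0.5 RPKM. The ligands Tnfsf18, Cd70 and Tnfsf15 lie far left of their receptors, and Ltb and Tnfsf11 far right of theirs.

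Genes that carry the receptor signal did not pass the test. Of 29 tested adaptors, ligases and kinases limma called 0 and voom 0, beside 0.352% and 1.25% of all genes. Without adjustment 4 had a limma p under 0.05, of which 3 were higher and 1 lower, beside 9.67% of all genes. The groups did not overlap in 5 of the 29, with 3 higher and 2 lower, beside 14.97% of all genes. Their median log2 difference was 0.022. Otulin, which removes linear ubiquitin chains, had the smallest p, with 36.5, 33.9 and 33.4 RPKM in pemafibrate 3, 7 and 8, against 32.6, 31.2 and 30.98 RPKM in vehicle 3, 4 and 7 (limma adjusted p = 0.412). Traf3, an inhibitor of the alternative NF-kappaB pathway, measured 17.6, 17.4 and 18.4 RPKM in pemafibrate 3, 7 and 8, against 19.1, 19.2 and 19.4 RPKM in vehicle 3, 4 and 7 (limma adjusted p = 0.454). The groups lay apart in both genes, by little. For Tank, a TRAF-binding regulator, the log2 difference was 0.16 ± 0.067 (SE, limma adjusted p = 0.507), and its groups overlapped.

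Among the 17 NF-kappaB genes, all tested, limma called 0 and voom 0, beside 0.352% and 1.25% of all genes. Without adjustment 0 had a limma p under 0.05, beside 9.67% of all genes. The groups overlapped in each of the 17, while 14.97% of all tested genes had groups without overlap. The median log2 difference was 0.0033. The 3 with the smallest p were Tnip2, Nfkbiz and Nfkbib, with log2 differences of -0.15, -0.19 and -0.071. Of 9 genes of family members outside the naming rule and of ligand and receptor sheddases, 3 were tested. Limma called 0 and voom 0, and 1 had an unadjusted limma p under 0.05, beside the same shares of all genes. That gene, Adam10, which encodes a sheddase, measured 38.2, 40.04 and 36.5 RPKM in pemafibrate 3, 7 and 8, against 35.96, 34.8 and 33.8 RPKM in vehicle 3, 4 and 7 (limma adjusted p = 0.402). Adam17, the TNF converting enzyme, and its partner Rhbdf2 had log2 differences of -0.039 ± 0.048 and -0.14 ± 0.073. The receptor and ligand genes Edar, Eda2r, Eda and Ngfr were all below the filter.

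The libraries had the markers of their labelled cell type. The 6 T cell markers summed to between 1142 and 1192 RPKM in pemafibrate and between 1154 and 1192 RPKM in vehicle. Among the Th17 markers Ccr6 lay wholly higher and Il17a, Il17f and Il23r wholly lower in pemafibrate, and the list summed to between 1339 and 1629.5 RPKM in pemafibrate and between 1789.6 and 1987 RPKM in vehicle. Markers of macrophages summed to between 7.73 and 13.7 RPKM in pemafibrate and between 9.11 and 11.9 RPKM in vehicle, and those of dendritic cells to between 1.06 and 1.395 RPKM in pemafibrate and between 0.913 and 1.096 RPKM in vehicle. Markers of CD8 T and NK cells, most of it Klrd1, summed to between 23.9 and 28.4 RPKM in pemafibrate and between 21.2 and 25.3 RPKM in vehicle. Klrb1c had 0 reads in every pemafibrate library, against 0, 0 and 1 in vehicle 3, 4 and 7, and Ncr1 had 0 reads in every pemafibrate library, against 1, 0 and 1 in vehicle 3, 4 and 7, too few to compare. Stromal and endothelial markers, nearly all Pecam1, summed to between 11.3 and 12.3 RPKM in pemafibrate and between 12.1 and 13.05 RPKM in vehicle, and erythroid and platelet markers to between 0.228 and 0.565 RPKM in pemafibrate and between 0.295 and 1.13 RPKM in vehicle. The part of these markers in the results was not tested. Hbb-bs, Hba-a1 and Clec9a were at 0 in all samples.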

How the data were processed

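Libraries of 6 mouse Th17 samples were made with the TruSeq stranded mRNA kit, each from 1.0 µg of RNA, per the labels' protocols. The submitters' processing notes name Trimmomatic 0.35, bcl2fastq, featureCounts 1.4.6, edgeR and HISAT2 2.1.0, with GRCm38 (mm10). Annotation and strand setting are not given in the sources used here, and reads of overlapping or antisense genes may be shared. The authors deposited RPKM per gene and sample, with their own log2 fold change (pemafibrate over vehicle by the RPKM columns), p-value and adjusted p-value, per the file headers. The authors' deposited rank, an other kind of column, was not used.

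The RPKM values of each gene were whole multiples of 1 step per sample. Whole reads were recovered for 100% of the 16822 genes above 0 (relative tolerance 1e-06) as the smallest numbers that also give a whole gene length, and imply 14935351 to 18322467 reads per library. Limits from read numbers cover no more than counting error.

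The 11360 genes averaging 0.5 RPKM or more were fitted with limma 3.58.1 (R 4.3.3, prior variance trend) on log2(RPKM + 0.5), a scale that understates changes of low genes. Alternatives tried were other pseudocounts (0.1 and 1), no filter, a filter at 2 RPKM, median ratio scaling, array weights, voom on recovered reads (mean of at least 10), the title number as a replicate block and leaving out each sample. Counts of same-group samples differed beyond sampling noise (chi-square per degree of freedom from 2.78 to 8.27).

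Members, gene lists and tests were chosen with earlier results of these data known. Members named with values were those called, those whose groups do not overlap, the 6 most abundant receptors and 4 most abundant ligands, and their partners; of the other lists, called genes and the 3 with the smallest p. Tnfrsf22, Cd27, Tnfrsf10b, Tnfrsf12a, Tnfrsf13c, Relt and Tnfrsf21 fall outside this rule and were given so that every tested member is described. Others, named for a count or a marker level, and the regulatory T cell markers were picked with their values in view. The values of some marker genes are not reported here. Ligand and receptor pairs come from general knowledge. Positions and promoters are from RefSeq (GRCm38.p6), which had all 42 members and promoters of 32, and exon overlaps and shared words from GENCODE M21. Plots used matplotlib 3.10.9 (Python 3.11.15).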

Additional observations from a re-analysis of the deposited data

How the results depend on the processing

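Under limma the count of called members was 0 in the main setting and in 12 of 14 alternatives. Voom on recovered reads called 3 receptors (Tnfrsf9, Tnfrsf23 and Tnfrsf26) and 1 ligand (Tnfsf11), and array weights called 2 receptors (Tnfrsf9 and Tnfrsf23) and 0 ligands. Leaving out any 1 sample gave 0 called members. The signalling genes, NF-kappaB genes and genes outside the naming rule had 0 calls in all 14 alternatives. Over all genes the count of 40 became 7 with no expression filter, 140 with array weights, 148 with voom, 0 with the title number as a replicate block (653 at an unadjusted p under 0.05) and 0 to 25 when a sample was left out (0 without pemafibrate 7, 2 without vehicle 3, 8 without vehicle 4, 15 without pemafibrate 8, 18 without vehicle 7 and 25 without pemafibrate 3). The causes were not tested. The alternatives were fitted over all genes that passed their filter, but signs were compared with the main setting for only 24 of the 31 tested members. Sign changes in the other tested members, some of them also near 0, are not counted here. Log2 differences near 0 turned negative in 6 of these 24: Tnfrsf13b (-0.032 with array weights; -0.12 to 0.081 with a sample left out), Tnfrsf25 (-0.019 with array weights, -0.024 with the replicate block; -0.027 to 0.038), Tnfrsf14 (-2.7e-06 with median ratio scaling, -0.0092 with the block; -0.021 to 0.047), Tnfrsf1b (-0.038 with the block; -0.024 to 0.037), Tnf (-0.0055 to 0.12) and Cd40 (-0.024 to 0.15). No label ties equal title numbers to a shared animal or day, and same-numbered samples did not deviate together (correlation 0.0304 for number 3 and -0.0083 for number 7). Some samples of unlike number stood farther from 0. The correlation was 0.199 for pemafibrate 8 with vehicle 4, 0.185 for pemafibrate 3 with vehicle 7 and -0.22 for pemafibrate 3 with vehicle 4. The cause was not tested.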
